A study of Mus musculus with 15 samples.

Results

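The proteasome is the large protease that breaks down most ubiquitin-tagged proteins of a cell. Its 26S form joins a barrel, the 20S core, to a cap, the 19S particle. The core is a stack of alpha rings and beta rings, the alpha subunits forming the gate and Psmb5, Psmb6 and Psmb7 carrying the catalytic sites of the beta rings. The cap has a base, with a ring of ATPases (the Psmc genes) and larger scaffold and ubiquitin-binding subunits, and a lid, which holds the deubiquitinase Psmd14. Further genes of the Psm series encode assembly chaperones and the alternative caps and inhibitors of the core. In many cells these genes are raised together when proteasome capacity is short, through the transcription factor Nfe2l1, and in brown fat cells this arm is known for its part in the response to cold.

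Mouse protein-coding genes were taken whose symbol reads Psm, then one letter from a to g, then a digit, with at least 10 counts in at least 3 samples. The interferon-induced Psmb8, Psmb9, Psmb10, Psme1 and Psme2 were left out. Of 54 symbols of that form in the files, 4 were pseudogenes, 5 were the interferon-induced genes and 2 had too few counts, which left 43 genes of the 15997 tested. The 2 were Psma8, the testis form of an alpha subunit, with 0 counts in all 15 samples, and Psmb11, the thymus form of a catalytic subunit, with 6 counts over all samples. All 43 genes had 10 or more counts in every sample, and all passed the filter on low counts. They comprised 31 subunits of the 26S proteasome (7 alpha ring, 7 beta ring, 6 base ATPase, 3 other base and 8 lid genes), 7 assembly chaperones and 3 regulators of the core. The remaining 2 genes match the symbol pattern only: Psmc3ip is a meiotic recombination factor, and Psme2b is a near copy of the interferon-induced Psme2. Thus the name 26S proteasome subunit holds for 31 of the 43 genes.

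The RNA came from embryonic fibroblasts (MEFs) of wild-type BALB/c mice, taken from 10.5 day old embryos, in 5 conditions of 3 replicates each, numbered 1, 3 and 4. MEFD0 cells were at day 0, before treatment. MEFD3plu cells had spent 3 days in differentiation medium, which holds 0.5 mM IBMX (a phosphodiesterase inhibitor), 10 µg/mL insulin, 1 µM dexamethasone (a glucocorticoid) and 10 µM rosiglitazone (an agonist of Pparg). MEFD5plu cells were then given growth medium, DMEM with 10% FBS, for the 2 further days to day 5. MEFD3min and MEFD5min were the untreated cells of the same days, and all conditions shared the growth medium as the base. The labels do not say whether the 3 replicates were separate cultures, so p-values measure the spread between these samples, which may be technical. A MEF culture is a mixed population, and in its bulk RNA fewer cells of a type and less RNA per cell cannot be told apart.

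Total counts lay between 24030558 and 37281126 per sample. Levels are in CPM, the count scaled to library size with TMM factors. Each adjusted p comes from the quasi-likelihood test of edgeR, adjusted by Benjamini and Hochberg's method over all 15997 genes, and a gene was called under 0.05. Standard errors (SE) are from the same fit. The 7 adipocyte markers summed to between 42.2 and 65.2 CPM in the 9 samples without treatment and to between 7441 and 11428.5 CPM in the 6 treated ones. The 8 fibroblast markers, none at 0, summed to between 8252 and 9297 CPM in MEFD0, 20764 and 28085 in MEFD3min, 10946 and 12110 in MEFD3plu, and 11318 and 13635 in the samples of day 5. The lists of macrophage, endothelial, epithelial and skeletal muscle markers each summed to at most 6.98 CPM in any sample, with Adgre1, Krt5 and Myod1 at 0 counts throughout. The 8 proliferation markers summed to between 2634 and 2719 CPM in MEFD0, 522 to 650 in MEFD3min and 573 to 624 in MEFD3plu. At day 5 they summed to 1973 to 2032 CPM without and 1385 to 1422 CPM with treatment. MEFD3min was the least even group for the proteasome genes: the 43 genes summed to 3550 CPM in replicate 3 and 4916 CPM in replicate 4.

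The 5′ flanks of the genes are shown first. Some motifs were held unevenly by the core and the cap, and their part in the changes of the genes was not tested. RefSeq promoter windows of 300 bases (250 before the start and 50 after, GRCm38.p6) were held for 36 of the 43 genes, 38 windows in all. The letters CGGAAG, the core bound by ETS factors, were sought on both strands. They were present for 13 of the 14 genes of the 19S particle with a window, all but Psmc5, and for 4 of the 11 genes of the 20S core (Psma4, Psma6, Psmb3 and Psmb4). Of all 32851 windows 16.9% held them, and of the 14019 windows of tested genes 28.5%. The letters TGACNNNGC, the core of the antioxidant response element at which Nfe2l1 and Nfe2l2 bind, were present for 6 genes (Psmb5, Psmb6, Psmc6, Psmd9, Psmd12 and Psme4). This was 15.8% of the 38 windows, against 12.4% of all windows and 14.2% of those of tested genes. The GC box GGGCGG was held by 52.6% of the genes' windows and 59.7% of those of tested genes, and CCAAT by 34.2% and 37.8%. Of the genes with a window, the GC box was present for 10 of 14 of the 19S particle and 5 of 11 of the 20S core. CCAAT was present for 4 of these 14 and 6 of these 11. In all, 13 motifs were counted, some of which overlap one another, and these 4 were picked after their counts were seen. A match describes letters and is not a measured binding site.

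Flanks of 6 genes, 180 bases each and all ending before the annotated start of the gene, are printed 5′ to 3′ on the strand of the gene, with either motif in capitals. They are the catalytic genes Psmb5 (chr14:54618023-54618202, minus strand) and Psmb6 (chr11:70525177-70525356, plus strand), with the antioxidant response core close to the start. Psma1 (chr7:114276119-114276298, minus strand), the gene most raised by treatment on both days among the subunits, has neither. Psmd2 (chr16:20651472-20651651, plus strand), Psmd11 (chr11:80428435-80428614, plus strand) and Psme3 (chr11:101316033-101316212, plus strand) have the ETS core.
Psmb5: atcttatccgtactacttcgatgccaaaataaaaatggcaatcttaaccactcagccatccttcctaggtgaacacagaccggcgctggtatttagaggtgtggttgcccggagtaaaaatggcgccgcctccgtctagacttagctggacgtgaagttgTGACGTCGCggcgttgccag
Psmb6: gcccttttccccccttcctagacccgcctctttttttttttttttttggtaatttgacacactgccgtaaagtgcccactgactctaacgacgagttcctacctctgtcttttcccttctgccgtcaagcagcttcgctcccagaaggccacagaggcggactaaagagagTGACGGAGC
Psma1: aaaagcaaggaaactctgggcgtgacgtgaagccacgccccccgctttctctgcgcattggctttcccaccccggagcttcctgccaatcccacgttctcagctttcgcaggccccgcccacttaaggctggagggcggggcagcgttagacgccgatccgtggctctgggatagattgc
Psmd2: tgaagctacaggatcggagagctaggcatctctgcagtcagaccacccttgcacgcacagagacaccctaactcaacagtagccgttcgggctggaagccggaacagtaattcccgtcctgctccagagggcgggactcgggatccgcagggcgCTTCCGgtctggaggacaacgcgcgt
Psmd11: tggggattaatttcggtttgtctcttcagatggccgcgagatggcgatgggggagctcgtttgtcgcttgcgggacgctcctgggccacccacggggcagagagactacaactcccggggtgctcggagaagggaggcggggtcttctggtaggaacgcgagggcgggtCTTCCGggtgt
Psme3: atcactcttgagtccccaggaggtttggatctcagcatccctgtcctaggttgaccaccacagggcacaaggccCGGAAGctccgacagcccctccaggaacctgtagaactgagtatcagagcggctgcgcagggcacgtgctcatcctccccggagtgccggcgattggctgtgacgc

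The genes lay above most tested genes in level. The median log2 CPM over all samples was 6.95 for the 43 genes and 4.18 for all genes tested. Per length of the principal transcript, the 31 subunits had a median of 97.8 CPM per kilobase. The 6 ATPases, which stand in one ring in equal number, lay within 1.39-fold of each other, from 70.5 (Psmc4) to 97.8 CPM per kilobase (Psmc3). The alpha ring genes, whose products also stand in equal number, spread over 5.55-fold, from 31.9 (Psma3) to 177 CPM per kilobase (Psma7). Chaperones and regulators were lower on this scale, between 7.35 (Psmf1, an inhibitor of the core) and 35.8 CPM per kilobase (Psme3, the nuclear cap PA28 gamma). The principal transcripts of Psma3 and Psma2, at 2846 and 2911 bases, were the longest of the core, and a level per length depends on which transcript is taken. Of the 43 genes, 10 share at least 10% of their 50-base stretches with other genes, Psma5 (49.96%), Psmd2 and Psmb3 (17.8% each) among them, and 4 overlap a gene of the opposite strand over at least 10% of their exon bases (Psmd9, Psmc3ip, Psmb7 with Nek6 and Psmd13 with Sirt3). Their counts may hold reads of those genes.

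Untreated MEFs lowered most of the proteasome genes between day 0 and day 3. In MEFD3min/MEFD0, 31 of the 43 genes (72.1%) fell and 2 rose, where 28.6% of all tested genes fell and 31.4% rose. The median log2 fold change was -0.45 for the 43 genes and 0.04 for all tested genes. All 17 genes of the 19S particle fell (median -0.66, from -0.90 to -0.29), namely 6 of 6 ATPases, 3 of 3 other base genes and 8 of 8 lid genes. In the 20S core 6 of 14 fell (Psma1, Psma2, Psma3, Psmb3, Psmb5 and Psmb7) with a median of -0.31. Hence the cap genes moved further than the core genes, by counts and medians that were not tested against each other.

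The largest fall among subunits was that of Psmd13 (chr7:140881968-140898643), a lid subunit. It had 130.6, 125.8 and 137.3 CPM in the MEFD0 replicates and 68.7, 60.5 and 81.7 CPM in MEFD3min. No sample of one group reached the other, and the log2 fold change was -0.90 (SE 0.091, adjusted p = 1.92e-07). Psmd2, a scaffold of the base with the highest mean CPM of the 43 genes, had 474.7, 511.5 and 477.6 CPM at day 0 and 274.0, 267.5 and 271.8 CPM in MEFD3min (log2 fold change -0.85, SE 0.072, adjusted p = 1.92e-08). Its replicates were far tighter than the gap between the groups. Psme3, at 102.9, 114.9 and 107.3 CPM at day 0 and 57.3, 57.2 and 63.7 CPM in MEFD3min, fell by 0.87 on the log2 scale (SE 0.078, adjusted p = 4.24e-08). Of the catalytic genes, Psmb5 went from 84.7, 92.4 and 108.9 CPM at day 0 to the MEFD3min values given further on (-0.45, SE 0.11, adjusted p = 0.00261) and Psmb7 from 103.7, 105.9 and 119.7 CPM (-0.51, SE 0.14, adjusted p = 0.00442). Psmb6, at 122.6, 125.8 and 139.9 CPM at day 0, did not pass the test (-0.24, SE 0.12, adjusted p = 0.0954). Both rises were outside the proteasome proper or small: Psme2b (2.42, SE 0.36) and the chaperone Psmg4, which had 8.30, 9.28 and 11.8 CPM at day 0 and 12.0, 11.3 and 14.2 CPM in MEFD3min, with overlapping groups (0.35, SE 0.14, adjusted p = 0.0365).

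The falls came with the drop in the proliferation markers and the rise in the sum of the fibroblast markers given above, whose part in the result was not tested. Against that sum, the mean of Vim fell from 6542 to 2814 CPM and that of Thy1 from 93.1 to 76.2 CPM. The other fibroblast markers had higher means in MEFD3min. Leaving out each sample in turn left 27 to 37 genes lower (62.8% to 86.05%, against 25.3% to 28.9% of all genes). Scaling by total counts alone moved the median of all genes by -0.12 in this comparison. It gave 36 genes lower (83.7%, against 33.85% of all genes) and 1 higher (2.33%, against 26.5%).

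**Figure D1:**
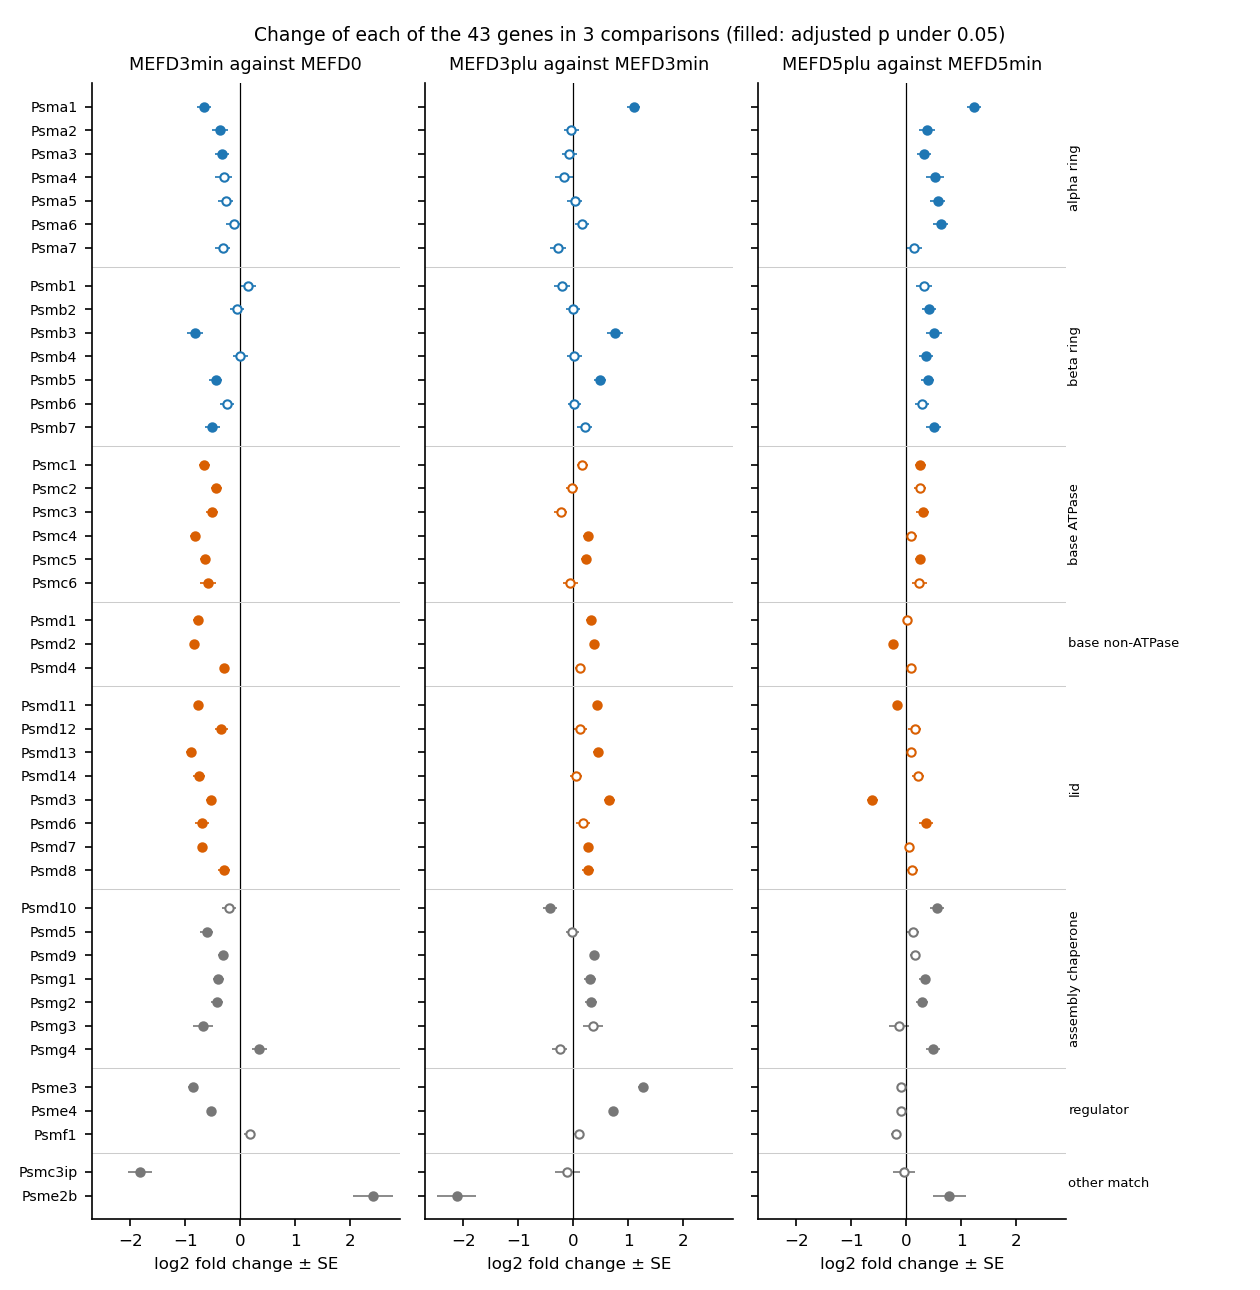
Log2 fold change with SE (x axis) of each of the 43 genes (rows, grouped by role) in MEFD3min/MEFD0, MEFD3plu/MEFD3min and MEFD5plu/MEFD5min, with 20S core genes in blue, 19S particle genes in orange and the others in grey. Filled points passed an adjusted p of 0.05. All 17 orange points lie left of zero and are filled in the first column, and 11 of the 14 blue points are filled to the right of zero in the third.

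The untreated cells regained part of this level by day 5. In MEFD5min/MEFD3min, 19 of the 43 genes (44.2%) rose, against 21.3% of all tested genes. None fell, against 21.5% of all tested genes, and none fell at an unadjusted p under 0.05 or by DESeq2 either. Again the cap led: 13 of 17 genes of the 19S particle rose (median 0.40) and 2 of 14 of the 20S core, Psma1 and Psmb3 (median 0.16). Psmd11, a lid subunit that was 73.8, 76.6 and 75.3 CPM in MEFD3min, was 113.7, 122.5 and 114.5 CPM in MEFD5min (log2 fold change 0.64, SE 0.065, adjusted p = 5.29e-07). Its 2 groups stood well apart. Psma1 rose from 92.0, 77.8 and 115.7 CPM to 130.9, 138.3 and 145.1 CPM (0.54, SE 0.12, adjusted p = 0.00182). Psmc3ip, the recombination factor, rose most (1.18, SE 0.22). The count of 19 moved both ways with single libraries. Without MEFD3min replicate 4, in which the genes were highest, 32 rose (74.4%, against 22.2% of all genes). Without MEFD3min replicate 3, 13 rose (30.2%, against 20.4%), and without replicate 1, 14 rose (32.6%, against 18.1%). A fit of only the samples compared gave 14 (32.6%, against 18.5%), and scaling by total counts alone 32 (74.4%, against 26.9%). The proliferation markers were again higher, and the sum of the fibroblast markers lower, in the group in which these genes were higher, and their part was not tested. Against that sum, the mean of Vim rose from 2814 to 4691 CPM and that of Thy1 from 76.2 to 104.9 CPM. The other fibroblast markers had lower means in MEFD5min.

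Treatment for 3 days raised a subset of the genes rather than the whole. In MEFD3plu/MEFD3min, 17 genes (39.5%) rose, where 28.0% of all tested genes rose, and 2 fell, where 28.0% of all tested genes fell. The median log2 fold change was 0.16, against 0.00 for all tested genes. The risers were 9 of the 17 genes of the 19S particle (2 ATPases, 2 other base genes and 5 lid genes), 3 of 14 of the 20S core (Psma1, Psmb3 and Psmb5), 3 chaperones (Psmd9, Psmg1 and Psmg2) and 2 regulators (Psme3 and Psme4). The 2 that fell were the chaperone Psmd10 and Psme2b.

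Psme3 (chr11:101316213-101323537) had the largest rise. Its level was 57.3, 57.2 and 63.7 CPM in MEFD3min and 134.4, 138.0 and 155.5 CPM in MEFD3plu, a log2 fold change of 1.26 (SE 0.078, adjusted p = 3.99e-10). Psme4, the cap PA200, went from 116.7, 120.2 and 114.9 CPM to 197.8, 189.3 and 195.6 CPM (0.73, SE 0.069, adjusted p = 1.04e-07). The 3 replicates of either gene lay far closer to each other than to the other group. The third regulator, Psmf1, was at 0.11 (SE 0.095, adjusted p = 0.351).

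Psma1 (chr7:114264606-114276118) was the subunit with the largest rise. It had 92.0, 77.8 and 115.7 CPM in MEFD3min and 188.3, 188.0 and 234.4 CPM in MEFD3plu (1.10, SE 0.12, adjusted p = 7.63e-07). The other 6 alpha genes lay between -0.28 and 0.16 and none was called, so 1 gene of the ring of 7 rose and 6 did not pass the test. Psmb3, a structural subunit of the beta ring, had 69.7, 56.5 and 89.9 CPM without and 109.6, 111.3 and 144.6 CPM with treatment (0.76, SE 0.15, adjusted p = 0.000291). Psmd3, a lid subunit, had 91.1, 104.8 and 87.3 CPM without and 146.8, 156.7 and 141.7 CPM with treatment (0.65, SE 0.099, adjusted p = 2.46e-05). In all of these genes every treated sample was above every untreated one.

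Of the catalytic genes Psmb5 rose, and differences between the genes were not tested. Psmb5, the chymotrypsin-like site, had 66.6, 60.4 and 82.3 CPM in MEFD3min and 94.1, 92.2 and 107.2 CPM in MEFD3plu (0.49, SE 0.11, adjusted p = 0.00156). Psmb6, the caspase-like site, had 108.4, 88.0 and 132.1 CPM and 103.8, 103.0 and 126.0 CPM (0.02, SE 0.12, adjusted p = 0.903). Psmb7, the trypsin-like site, had 73.2, 59.9 and 97.8 CPM and 85.3, 77.8 and 102.8 CPM (0.20, SE 0.14, adjusted p = 0.229). Of these 3 genes, only Psmb5 had groups that did not overlap, and with the length trend described below removed Psmb7 was called too (0.25, SE 0.090, adjusted p = 0.0206). Of the 50-base stretches of Psmb5 54.1% are also found in Gm3375, Mir686 or Psmb5-ps, so its reads may be split with theirs.

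Psmd10 (gankyrin), a chaperone of the base, went the other way, from 25.9, 22.5 and 31.2 CPM to 19.5, 16.95 and 22.7 CPM (-0.42, SE 0.13, adjusted p = 0.00923), with 1 treated sample inside the range of the untreated ones. Replicates of MEFD3min and MEFD3plu with the same number deviated together, and a fit with the replicate number as a block called 3 more genes at day 3: Psmc3 (-0.23, adjusted p = 0.0419), Psma7 (-0.27, adjusted p = 0.0228) and Psmg3 (0.37, adjusted p = 0.0384). The excess of rises over all genes rested on few libraries. Without MEFD3min replicate 3, 12 genes rose (27.9%, against 28.5% of all genes) and 6 fell, with a median of 0.04, and without MEFD3min replicate 4, 23 rose (53.5%, against 26.7%) and 1 fell, with a median of 0.30. The share was also 27.9% without MEFD3min replicate 1 (25% of all genes) or MEFD3plu replicate 4 (25.8%). A fit of only the samples compared called 10 higher (23.3%, against 25.1% of all genes) and 2 lower, so that the excess was lost.

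**Figure D2:**
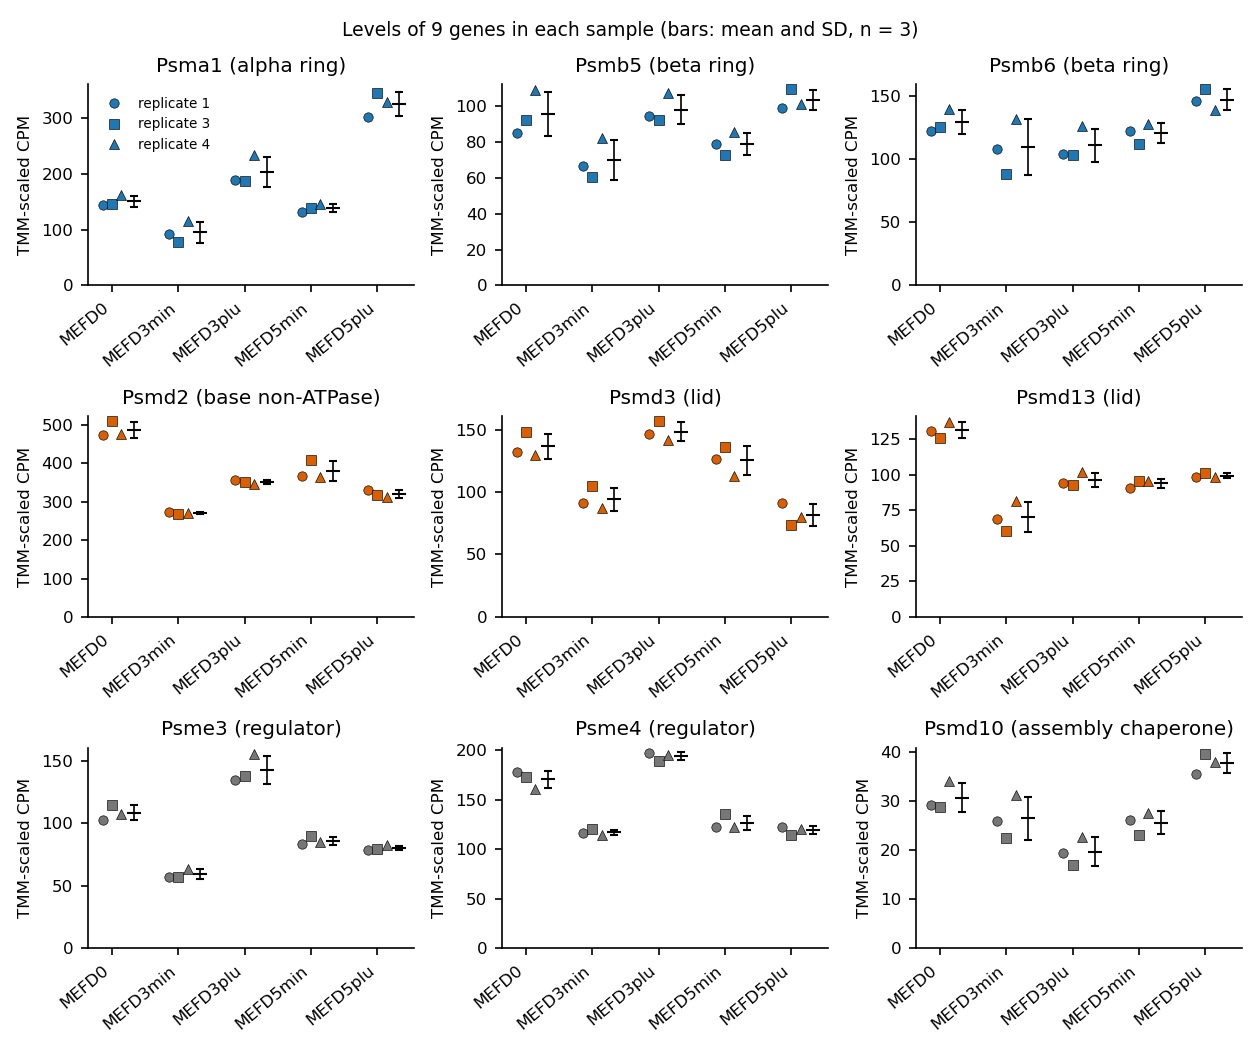
TMM-scaled CPM (y axis) of 9 genes in each sample by condition (x axis), with circles, squares and triangles for replicates 1, 3 and 4 and bars for the mean and SD of 3. Psme3 and Psme4 are highest in MEFD3plu, Psma1 in MEFD5plu, and Psmd3 is lowest in MEFD5plu.

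Measured from day 0, the treated cells at day 3 had not the level they started from. In MEFD3plu/MEFD0, 20 of the 43 genes (46.5%) were lower and 4 higher, where 29.7% of all tested genes were lower and 33.9% higher. All 6 ATPases were lower (median -0.53), with 5 of 8 lid genes, 2 of 3 other base genes and 4 of 7 alpha genes. Of the beta ring none passed the test (median -0.07). Psmc3, an ATPase, had 188.6, 195.7 and 204.0 CPM at day 0 and 108.1, 107.7 and 133.7 CPM in MEFD3plu (-0.75, SE 0.11, adjusted p = 2.03e-05). Psmd14, the deubiquitinase of the lid, had 166.1, 168.0 and 187.0 CPM and 107.0, 99.7 and 114.3 CPM (-0.70, SE 0.11, adjusted p = 2.00e-05). The groups of both genes stood apart. The 4 higher genes were Psma1 (0.43, SE 0.12) and the 3 regulators, Psme3 (0.40, SE 0.077), Psmf1 (0.28, SE 0.095) and Psme4 (0.18, SE 0.069). Psmf1 had 23.2, 26.1 and 27.9 CPM at day 0 and 29.7, 32.0 and 31.7 CPM in MEFD3plu. The groups of these 4 genes did not overlap.

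At day 5 the rises with treatment lay mainly in the core. In MEFD5plu/MEFD5min, 20 genes (46.5%) rose and 3 fell, where 26.3% of all tested genes rose and 24.2% fell. The median log2 fold change was 0.25, against 0.01 for all tested genes. Of the 20S core 11 of 14 rose (6 of 7 alpha and 5 of 7 beta genes, median 0.40), and of the 19S particle 4 of 17 (Psmc1, Psmc3, Psmc5 and Psmd6, median 0.11). The 3 that fell, Psmd2, Psmd3 and Psmd11, all belong to the 19S particle. No regulator was called.

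Psma1 again rose most. It had 130.9, 138.3 and 145.1 CPM in MEFD5min and 301.7, 344.5 and 328.6 CPM in MEFD5plu (1.24, SE 0.12, adjusted p = 3.71e-07). Psma6 had 141.7, 130.6 and 148.7 CPM without and 205.5, 223.6 and 220.4 CPM with treatment (0.63, SE 0.14, adjusted p = 0.00103). Of the catalytic genes, Psmb7 had 94.1, 87.3 and 97.1 CPM and 122.2, 141.0 and 131.0 CPM (0.50, SE 0.14, adjusted p = 0.00653). No sample of one group reached the other in these 3 genes. Psmb5 had 78.6, 72.7 and 85.2 CPM and 98.9, 109.3 and 101.1 CPM (0.39, SE 0.11, adjusted p = 0.00967). Psmb6, at 122.5, 111.7 and 127.9 CPM and 146.1, 155.7 and 139.2 CPM, did not pass the test (0.28, SE 0.12, adjusted p = 0.0607), although its groups did not overlap.

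Psmd3 (chr11:98682554-98695979) showed the largest fall at day 5. It had 126.8, 136.4 and 112.9 CPM without and 91.0, 73.5 and 80.0 CPM with treatment (-0.62, SE 0.099, adjusted p = 6.54e-05). Psmd2 had 366.4, 409.4 and 363.6 CPM and 331.5, 316.9 and 311.8 CPM (-0.25, SE 0.071, adjusted p = 0.00822), and Psmd11 113.7, 122.5 and 114.5 CPM and 101.9, 104.3 and 103.7 CPM (-0.18, SE 0.064, adjusted p = 0.0287). In all 3 the treated samples lay below the untreated ones.

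The excess of rises over all genes at day 5 did not hold under several settings. Scaling by DESeq2's size factors left 11 genes higher (25.6%, against 24.0% of all genes) and 3 lower, and DESeq2 itself 13 (30.2%, against 24.7%) and 4. Scaling by total counts alone, which moved the median of all genes by -0.16, left 8 higher (18.6%, against 19.2%) and 6 lower. Without MEFD5min replicate 1, 3 or 4 there were 10 higher (23.3%, against 23.1%, 22.5% and 22.6% of all genes). Without MEFD5plu replicate 3 or 4 there were 11 (25.6%, against 22.4% and 22.6%).

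Transcript length moved with the day 5 treatment. In MEFD5plu/MEFD5min, the median log2 fold change of all tested genes with a principal transcript was 0.24 in the class of shortest transcripts (3310 genes, at most 1917 bases) and -0.19 in that of the longest (3305 genes, at least 4530 bases). At day 3 these medians were -0.04 and 0.04. The principal transcripts of the 20S core have a median of 1162 bases and those of the 19S particle of 1636 bases. After the trend over length was removed in each sample (a setting chosen after the data were seen, over 13227 genes), 8 genes rose (18.6%, against 29.5% of all genes) and 4 fell at day 5, the median being 0.07, so that the share of rises was below that of all genes. Of the core 7 of 14 then rose (median 0.20), of the 19S particle none rose and 3 fell (median 0.01). In the same 13227 genes without that step 20 rose (46.5%, against 29.9%) and 3 fell. Psma1 (0.98, SE 0.077, adjusted p = 1.06e-08) and Psmd3 (-0.72, SE 0.10, adjusted p = 1.25e-05) kept their calls, and Psmb5 was at 0.07 (adjusted p = 0.360). At day 3 the step gave 23 higher (53.5%, against 33.0% of all genes) and 3 lower (6.98%, against 32.7%). In MEFD3min/MEFD0 all 17 genes of the 19S particle still fell (median -0.70), with 10 of 14 of the core, where 33.7% of all genes fell. Whether the trend over length is part of the treated cells or of the libraries was not tested.

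**Figure D3:**
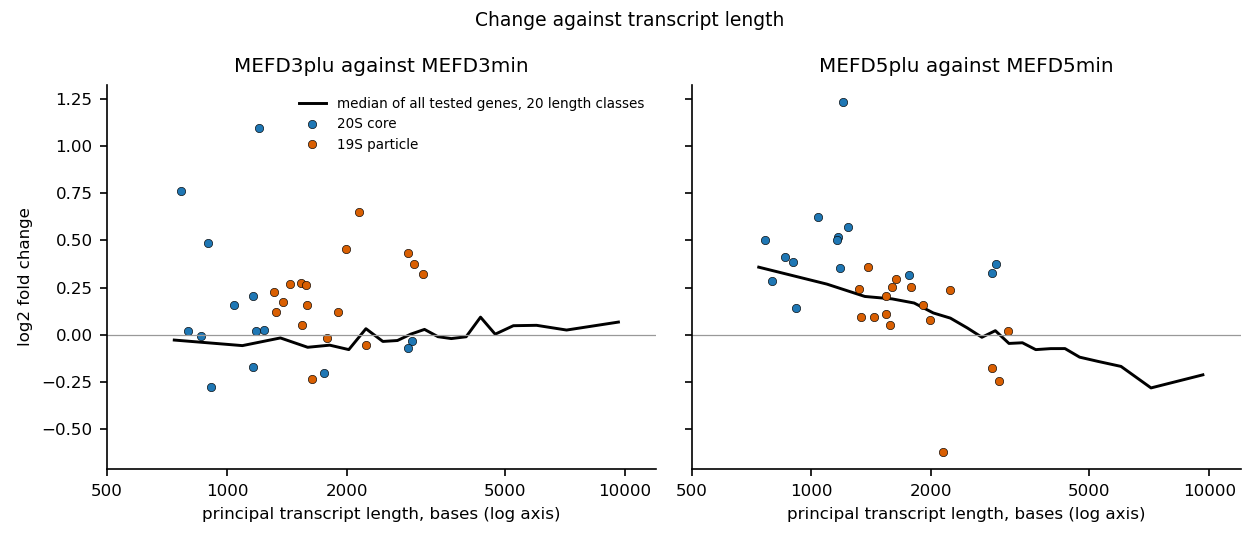
Log2 fold change on treatment (y axis) against the length of the principal transcript in bases (x axis, log scale), at day 3 (left) and day 5 (right), for the 14 genes of the 20S core (blue) and the 17 of the 19S particle (orange). The black line joins the medians of all tested genes in 20 classes of length; it stays near zero at day 3 and falls from short to long transcripts at day 5.

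The ratio of cap to core followed from these changes. Within a sample, the summed CPM of the 17 genes of the 19S particle divided by that of the 14 genes of the 20S core was 1.598, 1.613 and 1.452 in MEFD0 and 1.230, 1.313 and 1.077 in MEFD3min. It was 1.348, 1.360 and 1.160 in MEFD3plu, 1.395, 1.497 and 1.297 in MEFD5min and 1.084, 1.025 and 1.045 in MEFD5plu. Hence MEFD0 was above every other group except for 1 sample of MEFD5min, and MEFD5plu was below all but 1 sample, replicate 4 of MEFD3min. Replicate 4 gave the lowest ratio in each of the other 4 conditions, and in each of these it also had the highest level of short relative to long transcripts (a log2 difference between the class of shortest and that of longest transcripts of -0.03 to 0.14, against -0.37 to -0.03 in replicates 1 and 3). In MEFD5plu this difference was 0.32, 0.50 and 0.38 in replicates 1, 3 and 4, higher than in any other sample. No ratio was taken with the length trend removed, so the part of that trend in the low MEFD5plu ratio was not tested. The core summed to 2062 ± 193 CPM (SD, n = 3) at day 0, 1727 ± 398 without and 1865 ± 265 with treatment at day 3, and 1904 ± 126 without and 2659 ± 154 with treatment at day 5. The 19S particle summed to 3194 ± 114, 2053 ± 261, 2386 ± 114, 2651 ± 59.3 and 2793 ± 85.0 CPM in the same order. For the core, only MEFD5plu stood clear of all other groups, and for the cap MEFD0, MEFD5min and MEFD5plu each overlapped no other group, with MEFD0 the highest.

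**Figure D4:**
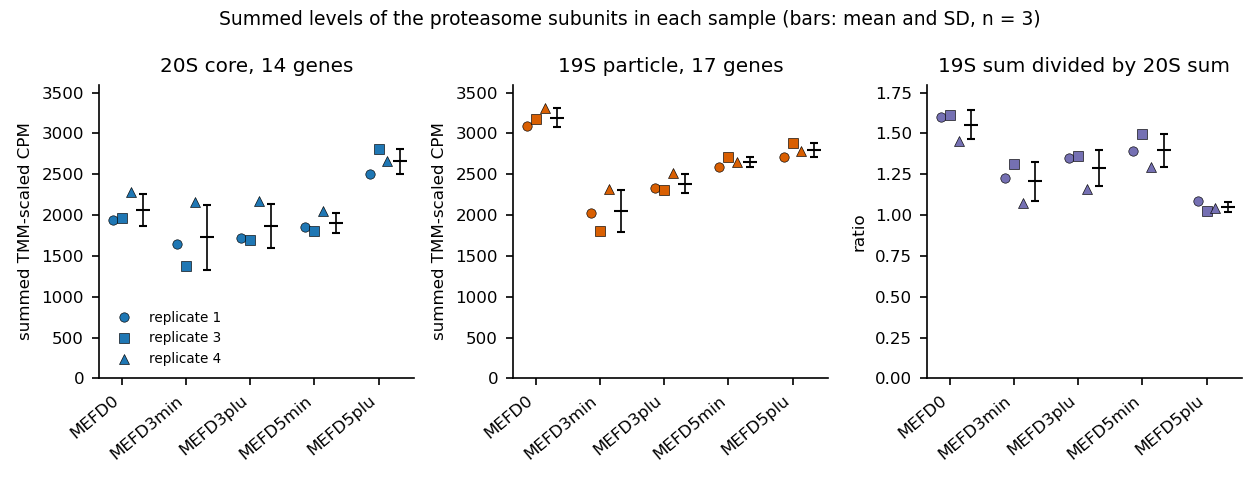
Summed TMM-scaled CPM (y axis) of the 20S core (left) and the 19S particle (middle) and their ratio (right) in each sample by condition (x axis), with markers for replicates 1, 3 and 4 and bars for the mean and SD of 3. The core is highest in MEFD5plu, the cap in MEFD0, and the ratio is between 1.025 and 1.084 in MEFD5plu.

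From day 3 to day 5 more than the background share of the genes rose in the treated cells, but not after the length trend was removed. In MEFD5plu/MEFD3plu, 27 of the 43 genes (62.8%) rose and 4 fell, where 33.8% of all tested genes rose and 29.2% fell, with a median of 0.41 against 0.06. All 7 alpha genes rose (median 0.67), with 4 of 7 beta genes, 5 of 6 ATPases and 4 of 8 lid genes. All 3 regulators fell. Psme3, at 134.4, 138.0 and 155.5 CPM at day 3, was back at 78.8, 79.8 and 82.3 CPM at day 5 (-0.83, SE 0.078, adjusted p = 1.02e-07). Psme4, then at 122.4, 114.9 and 120.9 CPM, fell by 0.70 on the log2 scale (SE 0.069, adjusted p = 1.99e-07) and Psmd3 by 0.86 (SE 0.099, adjusted p = 1.16e-06). Psmd10 rose from 19.5, 16.95 and 22.7 CPM to 35.5, 39.6 and 38.1 CPM (0.93, SE 0.13, adjusted p = 7.64e-06). These 4 genes had no overlap between the groups. Here too the length trend was large, the medians of all genes being 0.36 in the class of shortest and -0.26 in that of longest transcripts, and with the trend removed 14 genes rose (32.6%, against 35.7% of all genes) and 10 fell, with a median of 0.09.

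Over the 5 conditions, 24 of the 43 genes had their highest mean in MEFD5plu and 14 in MEFD0, while 25 had their lowest in MEFD3min and 12 in MEFD3plu. These counts were not made over all tested genes or with the length trend removed. Whether they differ from those of other genes was thus not tested. The treatment effect was also compared between the days. In the interaction, the effect at day 3 minus that at day 5, 6 genes (13.95%) were higher and 7 (16.3%) lower, where 22.6% of all tested genes were higher and 25.8% lower. The higher ones were Psme3 (1.36, SE 0.11, adjusted p = 3.73e-08), Psmd3 (1.27, SE 0.14, adjusted p = 1.39e-06), Psme4 (0.82, SE 0.098, adjusted p = 3.66e-06), Psmd2, Psmd11 and Psmd13. Psmd2, Psmd3 and Psmd11 rose with treatment at day 3 and fell at day 5. The lower ones were Psme2b, Psmd10 (-0.98, SE 0.18, adjusted p = 0.000252), Psmg4 (-0.73, SE 0.19, adjusted p = 0.00452), Psma4, Psma5, Psmc3 and Psmb1. Psma1, raised on both days, was not called here (-0.14, SE 0.17, adjusted p = 0.542). The called share, 30.2% in all against 48.5% of all genes, depended on the fit. With the replicate block it was 46.5% (7 higher and 13 lower, against 51.9% of all genes), the 7 genes gained being Psma2, Psma3, Psma6, Psma7, Psmb2, Psmb4 and Psmd1. Without MEFD3min replicate 3 it was 53.5% (6 higher and 17 lower, against 51.9%). Total counts alone gave 13 higher and 5 lower (41.9%, against 49.7%), and removal of the length trend 16 higher and 4 lower (46.5%, against 57.1%).

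In the main fit the other genes of the pathway did not all go with the subunits. Of 27 listed genes (proteins bound to the proteasome, factors that control its genes, ubiquitin genes, activating enzymes and delivery factors), 12 rose and 4 fell at day 3, with a median of 0.19, and 5 rose and 10 fell at day 5, with a median of -0.07. Of all tested genes 28.0% rose and 28.0% fell at day 3, and 26.3% rose and 24.2% fell at day 5. Pomp, which matures the core, rose at day 3 (0.48, SE 0.14, adjusted p = 0.00690) and at day 5 (0.54, SE 0.14, adjusted p = 0.00337). The cap receptor Adrm1 rose at day 3 (0.48, SE 0.12) and fell at day 5 (-0.39, SE 0.12), as did the cap deubiquitinase Uchl5 (0.66, SE 0.11, and -0.44, SE 0.10). Of the 9 delivery factors, which bring ubiquitinated proteins to the cap, 5 rose and 1 fell at day 3, and 1 rose and 6 fell at day 5. Their median interaction was 0.68, with 6 of 9 called higher, where 22.6% of all tested genes were higher.

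Nfe2l1, the activator of proteasome genes, was highest in MEFD3plu, at 439.8 ± 4.68 CPM (SD, n = 3), against 222.8 ± 20.4 in MEFD0, 311.0 ± 37.8 in the untreated cells of day 3, 200.2 ± 8.22 in those of day 5 and 227.1 ± 15.1 in MEFD5plu. It rose with treatment at day 3 (0.50, SE 0.093, adjusted p = 0.000190) and was not called at day 5 (0.18, SE 0.093, adjusted p = 0.114). The interaction of Nfe2l1 was not called (0.32, SE 0.13, adjusted p = 0.0542). Ddi2, the protease that activates the product of Nfe2l1, also had its highest mean in MEFD3plu (116.5 CPM). It rose by 1.01 on the log2 scale at day 3 (SE 0.11) and fell by 0.69 at day 5 (SE 0.11), with an interaction of 1.70 (SE 0.16). The other listed factors that control proteasome genes, Ngly1 and Nfe2l2, had their highest means in MEFD5plu (91.15 and 214.1 CPM). Ngly1 was not called at day 3 (0.20, SE 0.092) and rose at day 5 (0.92, SE 0.092). Nfe2l2 fell at day 3 (-0.25, SE 0.10) and rose at day 5 (0.31, SE 0.10). In MEFD3min/MEFD0, 13 of the 27 genes fell and 4 rose, where 28.6% of all tested genes fell and 31.4% rose. Among the falls were 5 of 8 bound proteins and 7 of 9 delivery factors. Nfe2l1 rose (0.48, SE 0.093), and Ddi2 was not called (-0.23, SE 0.11, adjusted p = 0.0812). Thus the messenger of the activator and the sum of the subunits were not highest in the same condition.

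The interferon-induced genes, of which Psmb8, Psmb9 and Psmb10 replace the catalytic subunits of the core and Psme1 and Psme2 form another cap, moved in opposite directions on the 2 days. All 5 (Psmb8, Psmb9, Psmb10, Psme1 and Psme2) fell at day 3 (median -2.05) and rose at day 5 (median 1.63). Psmb8, which takes the place of Psmb5, was at 0.566 ± 0.156 CPM (SD, n = 3) at day 0, 10.7 ± 1.43 without and 1.18 ± 0.0982 with treatment at day 3, and 9.65 ± 2.28 without and 30.1 ± 0.492 with treatment at day 5. Psmb5 rose on both days by 0.49 and 0.39, as given above. Psme2b went with its parent gene: 3.10, 1.54 and 2.25 CPM in MEFD3min, 0.682, 0.627 and 0.282 CPM in MEFD3plu (-2.12, SE 0.35, adjusted p = 6.52e-05), 1.98, 1.48 and 2.08 CPM in MEFD5min and 3.48, 2.42 and 3.71 CPM in MEFD5plu (0.78, SE 0.30, adjusted p = 0.0400). It rests on 10 to 123 counts per sample, and 69.3% of its stretches are also found in Psme2 or Gm7928, so reads of these genes may be split between them.

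Psmc3ip, named for an interaction with Psmc3 but no proteasome gene, was, like the sum of the proliferation markers, highest at day 0 and lowest in the 2 groups of day 3: 11.8, 12.8 and 13.7 CPM at day 0, 3.98, 2.13 and 4.74 CPM without and 3.34, 2.51 and 4.12 CPM with treatment at day 3, and 9.02, 7.01 and 8.27 CPM without and 7.80, 7.83 and 8.08 CPM with treatment at day 5. It was the gene with the largest fall from day 0 in MEFD3min (-1.83, SE 0.22) and MEFD3plu (-1.94, SE 0.22), and its 2 treatment effects were -0.11 (SE 0.23) and -0.04 (SE 0.21), neither of them called.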

How the data were processed

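The authors deposited 1 file of raw read counts per gene for each of the 15 samples. The submitters' processing notes name TopHat2 2.1.0, HTSeq, DESeq2 and the GRCm38 (mm10) build. The labels name a library kit that does not mark strand and the methods a stranded one, and the strand setting of the counting is not given in the sources used here. The deposited counts were fitted with edgeR 4.0.16 in R 4.3.3 (TMM scaling, low counts removed by filterByExpr, quasi-likelihood test) in 1 model over the 5 conditions without covariates, with Benjamini-Hochberg adjustment over 15997 genes. DESeq2 1.42.0 and the other alternatives are given in the closing section, and the fit was tested on simulated data. All members are described by role, with values in every sample for Psmb5, Psmb6 and Psmb7 and for the 3 called genes with the largest change in each direction of a comparison. The members and lists were chosen with earlier results of these data known. Gene names came from GENCODE M21, which named 46091 of 46603 identifiers. Same-numbered samples of MEFD3min and MEFD3plu deviated from their group means together (r = 0.143, 0.228 and 0.360). The replicate number was used as a block in an alternative fit only, and the main fit ignores it. Correlations between samples of different number were not taken. The labels do not say what a number marks.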

Additional observations from a re-analysis of the deposited data

Results flagged for a closer look

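The effect of treatment at day 3 minus that at day 5 passed an adjusted p of 0.05 (edgeR's quasi-likelihood test, Benjamini-Hochberg over all genes tested) for 13 of the 43 genes, and each is given on the log2 scale. The effect was higher at day 3 for Psme3 by 1.36, Psmd3 by 1.27, Psme4 by 0.82, Psmd2 by 0.62, Psmd11 by 0.61 and Psmd13 by 0.37. It was lower at day 3 for Psmb1 (-0.52), Psmc3 (-0.53), Psma5 (-0.55), Psma4 (-0.69), Psmg4 (-0.73), Psmd10 (-0.98) and Psme2b (-2.91). After removal of the trend over transcript length 3 of the 13 did not pass: Psmg4 (-0.34, adjusted p = 0.0796), Psma5 (-0.26, adjusted p = 0.0901) and Psmb1 (-0.31, adjusted p = 0.133). Of the 22 alternatives planned, Psmb1 was lost under 15, Psma5 under 7, Psma4 under 4 and Psmd13 under 3, and the other 9 genes under none.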

How the results depend on the processing

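Of 162 calls of single genes over the 7 comparisons, 112 held under every alternative planned and 50 were lost under at least 1, none of these alternatives reversing a call. The called genes of MEFD3plu/MEFD3min numbered 19 of 43 (44.2%, against 56.05% of all genes). A fit of only the samples compared gave 12 (27.9%, against 50.5%). Among the 31 subunits alone, a smaller set, 12 were called. Those of MEFD5plu/MEFD5min numbered 23 of 43 (53.5%, against 50.5% of all genes). Total counts alone gave 14 (32.6%, against 51.9%) and the size factors of DESeq2 14 (32.6%, against 50.5%). Removal of the length trend gave 12 (27.9%, against 59.15%). With 1 sample left out there were 12 to 27 (27.9% to 62.8%, against 41.4% to 52.7%). At an adjusted p under 0.01 there were 10, without a count over all genes. Without genes that share stretches, a smaller set, 15 were called. The median of this comparison became 0.0886 with total counts alone and 0.0684 with the length trend removed. For the interaction the number was 13 (30.2%, against 48.5% of all genes). It was 20 with the replicate block (46.5%, against 51.9%) and 20 with the length trend removed (46.5%, against 57.1%). With 1 sample left out it was 10 to 23 (23.3% to 53.5%, against 42.7% to 51.9%). At an adjusted p under 0.01 it was 8, and among the 31 subunits alone 8. The median of the interaction, -0.09, turned to 0.0929 with total counts alone and 0.145 with the length trend removed. It lay between -0.251 and 0.0367 with 1 sample left out, being above 0 without MEFD3min replicate 4. MEFD5min/MEFD3min had 19 called (44.2%, against 42.8% of all genes) and 32 with total counts alone (74.4%, against 42.9%). With 1 sample left out it had 13 to 32 (30.2% to 74.4%, against 36.0% to 44.2%). In MEFD5plu/MEFD3plu the median became 0.0867 with the length trend removed. There 12 of the 43 genes changed sign, among them Psmg2 (-0.0215), Psmc4 (-0.0954), Psmd4 (-0.133) and Psmd7 (-0.110). With the same step 8 of the 43 changed sign in MEFD5plu/MEFD5min and 10 in the interaction. The cause of these changes was not tested. Outside day 3 not every same-numbered pair had a correlation of deviations above 0.1 (MEFD5min and MEFD5plu 0.0422, -0.0045 and 0.0538; MEFD0 and MEFD3min 0.0837, 0.132 and 0.180; MEFD0 and MEFD3plu 0.124, 0.0706 and 0.110; MEFD3min and MEFD5min -0.0114, 0.0946 and 0.146; MEFD3plu and MEFD5plu -0.0204, -0.103 and 0.0155), so the numbers were not taken as pairs there. The replicate block gave 22 called at day 3 (51.2%, against 59.1% of all genes) and 26 at day 5 (60.5%, against 53.8%). It gave 37 in MEFD3min/MEFD0 (86.05%, against 62.6%) and 22 in MEFD5min/MEFD3min (51.2%, against 46.4%). In MEFD3plu/MEFD0 it gave 26 (60.5%, against 66.0%) and in MEFD5plu/MEFD3plu 32 (74.4%, against 65.1%). Depth limits only Psme2b, whose lowest count was 10.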

Other observations

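Of the 43 genes, 7 have a start within 1000 bases of that of a neighbour on the other strand. Psmd10 and Atg4a, an autophagy protease, start 179 bases apart, and with treatment at day 5 they rose by 0.56 and 0.81 on the log2 scale. At day 3 Psmd10 fell (-0.42) and Atg4a was at 0.28 (edgeR adjusted p = 0.0513). Psma2 and Mrpl32, of the mitochondrial ribosome, start 75 bases apart and rose by 0.37 and 0.69 at day 5, while at day 3 Mrpl32 rose by 0.69 and Psma2 was at -0.03 (adjusted p = 0.864). Both genes of a pair were called in 1 of 7 pairs at day 3 (Psmc5 and Ftsj3) and in 2 of 7 at day 5. Of all tested genes 56.05% were called at day 3 and 50.5% at day 5, and pairs outside the 43 genes were not counted.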
